A study of Macaca radiata with 4 samples.

Results

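Receptors for amines, peptides and lipids were read through 72 genes in the monkey corpus luteum, the gland that forms from the ovulated follicle and makes progesterone. The genes were chosen by a name pattern that covers receptors for serotonin, catecholamines, acetylcholine, histamine, angiotensin, vasopressin, oxytocin, bradykinin, tachykinins, nucleotides, prostanoids, lysophospholipids, proteases and several hormones. They were 72 of 14132 genes with a symbol of their own in the array annotation, and 111 of 52766 probe sets. Each gene was represented by its brightest probe set, by the mean of log2(signal + 16) over the 4 arrays. The pattern also took in genes that are not G protein-coupled receptors. HTR3A, HTR3B, HTR3C, HTR3D and HTR3E encode subunits of a serotonin-gated ion channel, and AGTRAP encodes a protein that binds the angiotensin receptor, so 66 of the 72 were G protein-coupled receptors.

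Corpora lutea came from female bonnet monkeys (Macaca radiata), 2 animals per group, and RNA was measured on 4 arrays designed for the rhesus macaque. On luteal phase day 7 all animals were given CET at 150 µg/kg, a treatment that per the labels inhibits their own LH secretion. At 24 h the PBS group (replicates 1 and 2) received the vehicle and the rhLH group (replicates 3 and 4) received 20 IU/kg of rhLH, and tissue was taken 8 h later. No group without CET was analysed here, so every value stands on a background of LH withdrawal. Values are MAS5 signals, in arbitrary units, given below in the order of the replicate numbers.

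G protein-coupled receptors are membrane proteins that bind a ligand outside the cell and switch on G proteins inside it. Gs raises cAMP, Gi lowers it, and Gq activates phospholipase C and calcium release. LH itself acts on the corpus luteum through such a receptor, which couples to Gs, while prostaglandins, angiotensin, oxytocin and other local mediators act on luteal, vascular and immune cells through related ones. The name patterns for the LH, FSH, prostaglandin F and endothelin receptors matched no probe set with 1 symbol, and these genes were not analysed here.

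The arrays were not alike. PBS replicate 1 had a median signal of 186 against 136 to 139.5 on the others, and its Pearson correlation with them across kept probe sets was 0.752 to 0.780, where the others correlated at 0.940 to 0.947. For genes whose groups did not overlap, differences are therefore given against each PBS array as well. Luteal markers were present: 9 of 12 were matched and all 9 lay above a signal level of 90.7, explained next, with STAR at 24283 to 54566 over the arrays and HSD3B2 at 25500.1 to 38138.

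A gene was counted as above the signal level when its mean log2 value exceeded the 40th percentile of all probe sets, which equals a signal of 90.7. Detection calls were not used here, so this level stands in for expression. By this measure 36 of the 72 receptor genes were above the level and 36 were below it, while 10998 of 14132 genes (77.8%) were above it in the whole table. On all 4 arrays the signal exceeded 90.7 for 22 receptor genes (30.6%), against 66.7% of all genes. The nearest genes inside the level were BDKRB1 (99.2), TSHR (102) and LPAR5 (103), and the nearest outside were TACR2 (89.9), P2RY1 (89.5) and HTR3C (89.2), as signals of the mean log2 value. At the 70th percentile 9 genes were left. Since the level uses the mean of all arrays, a gene can pass it through its brighter group alone, so counts and medians over the 36 are descriptions. The mean log2 value of the PBS arrays was under the level for ADRB3, BDKRB2 and PTGDR2, and that of the rhLH arrays for BDKRB1, HTR1B, LPAR5, P2RY4 and TSHR.

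**Figure D1:**
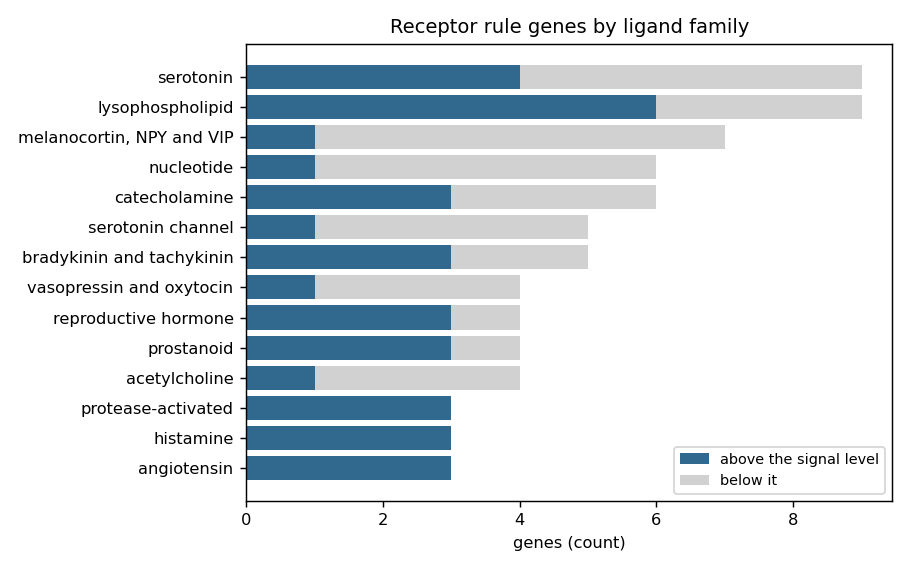
Number of genes in each ligand family (horizontal axis, count) that lay above the signal level of 90.7 (dark) or below it (grey). All 3 genes of the angiotensin, histamine and protease-activated families were above it, against 1 of 7 melanocortin, NPY and VIP receptors and 1 of 6 nucleotide receptors.

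Families differed in how many members were above the level. All of the protease-activated receptors (3 of 3), histamine receptors (3 of 3) and genes of the angiotensin family (3 of 3) were above it. So were 6 of 9 lysophospholipid receptors, 4 of 9 serotonin receptors, 3 of 4 prostanoid receptors, 3 of 4 receptors of reproductive and related hormones, 3 of 5 bradykinin and tachykinin receptors and 3 of 6 catecholamine receptors. Each of the families of acetylcholine (1 of 4), vasopressin and oxytocin (1 of 4), serotonin channel (1 of 5), nucleotide (1 of 6) and melanocortin, NPY and VIP (1 of 7) receptors had a single member above it.

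By their brightest probe sets, 18 of the 36 genes below the level did not exceed 90.7 on any array, with signals from 3.80 to 84.6. They were the adrenergic receptors ADRA2A and ADRA2B, the serotonin receptors HTR1A, HTR1E, HTR1F and HTR2A, the channel subunit HTR3E, the oxytocin receptor OXTR, the vasopressin receptor AVPR1B, the melanocortin receptors MC2R and MC5R, NPY4R, TACR3, LPAR3, LPAR4, S1PR4, P2RY10 and the prostacyclin receptor PTGIR. The other probe set of MC2R read 254 on PBS replicate 1. OXTR, through which oxytocin acts, had signals of 21.5 and 32.3 with PBS and 11.8 and 17.6 with rhLH. Both groups of OXTR arrays lay far under 90.7, so no fold is given.

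A further 7 genes below the level exceeded 90.7 on PBS replicate 1 alone: the muscarinic receptor CHRM5, ADRA1A, NPY2R, RXFP3, HTR3A, HTR3B and HTR3C. HTR3C had signals of 544 and 26.9 with PBS and 41.7 and 72.3 with rhLH, and CHRM5 of 241 and 27.7 with PBS and 26.8 and 14.5 with rhLH. In both cases a single array carried the signal. Among all 3134 genes below the level, 611 showed this pattern. CHRM1, MC3R, P2RY6 and AVPR2 exceeded 90.7 on rhLH replicate 4 alone, P2RY2 on rhLH replicate 3 alone, P2RY12 on PBS replicate 2 alone, and CHRM4, VIPR2, HTR4, P2RY1 and TACR2 on 2 or 3 arrays.

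The comparison of rhLH with PBS asked which of these transcripts differ when LH is given back. HTR2B, a serotonin receptor that couples to Gq, was lower on both rhLH arrays. HTR7, a serotonin receptor that couples to Gs, AGTR1, the main receptor for the pressor action of angiotensin, the lysophosphatidic acid receptor LPAR5 and the nucleotide receptor P2RY4 also had lower signals on both rhLH arrays than on either PBS array. PTGDR2, a prostaglandin D receptor, had higher signals on both rhLH arrays. No receptor gene passed the limma test over all 31659 kept probe sets (0 of 36 at an adjusted p of 0.05, smallest adjusted p 0.919; background 0%), and 1 of 36, HTR2B, had an unadjusted p under 0.05, where 2.02% of kept probe sets did. An exact permutation test of 2 against 2 arrays cannot give a two-sided p below 0.333.

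Both rhLH arrays lay below both PBS arrays for 8 of 36 receptor genes and above them for 2, against 17.7% and 14.4% of all kept probe sets. Of the 10998 genes above the level, each by its brightest probe set, 1767 lay lower and 1790 higher in this way. At a distance of at least 2-fold between every rhLH and every PBS array, 1 gene was lower by its brightest probe set (HTR2B) and 0 were higher, against 0.49% and 0.344%. The median log2 difference over the 36 was −0.21, beside −0.036 over all kept probe sets and 0.018 over all 10998 kept genes. Of the 36 differences 26 were negative, against 16625 of 31659 for kept probe sets and 5346 of 10998 for kept genes. With arrays centred on their medians 18 of 36 were negative, and under quantile normalization 21 of 37. The median over all kept probe sets was then 0.19 with centring and 0.044 with quantile normalization, so these counts stand on a shifted background. Taken from PBS replicate 1 alone the receptor median was −0.80, and from PBS replicate 2 alone it was 0.059, so its sign turned without PBS replicate 1. It also turned, to 0.016, with all 4 arrays centred on their medians, which moved the median of all kept probe sets by 0.23. The receptor median relative to all kept probe sets was −0.17. Centring shifts every difference by the same amount, so it could not change this value. Under quantile normalization the receptor median was −0.036, or −0.080 relative to all kept probe sets. Both scalings left 6 receptor genes lower and 3 higher on both rhLH arrays: HRH2 and P2RY4 then overlapped, and S1PR5 was added on the higher side. Shares of negative or non-overlapping probe sets over the whole table were not computed under these scalings.

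**Figure D2:**
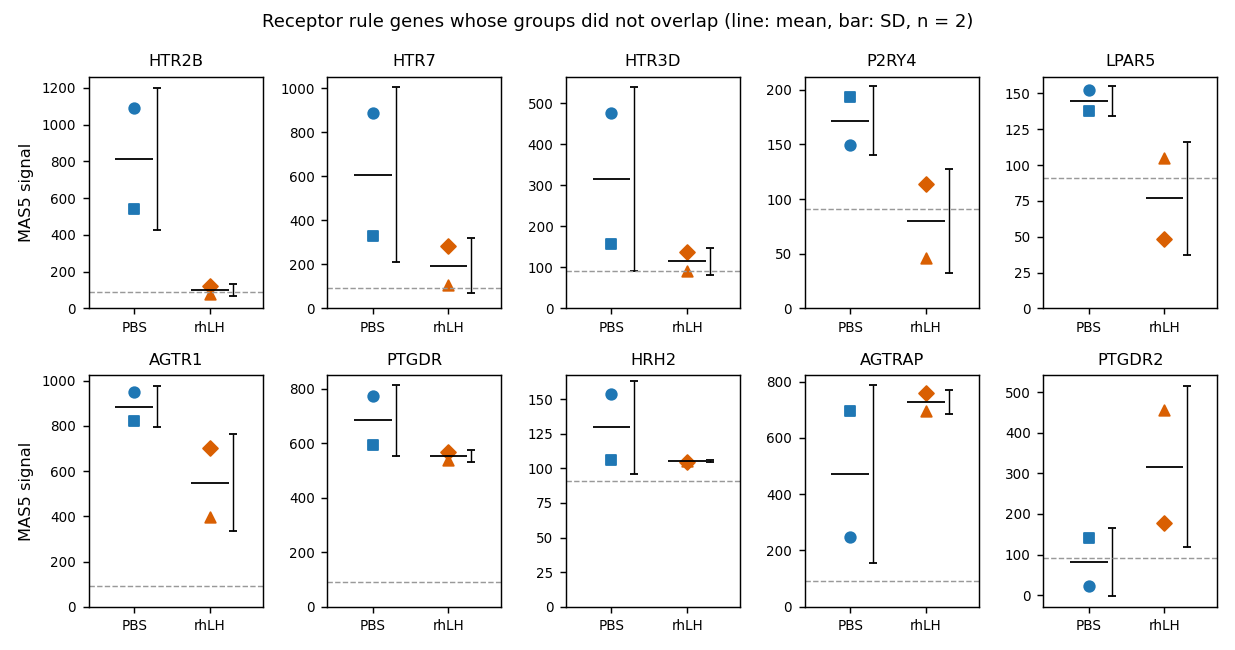
MAS5 signal (vertical axis, arbitrary units) on each array for the 10 genes whose groups did not overlap, with PBS replicates as blue circle (1) and square (2) and rhLH replicates as orange triangle (3) and diamond (4). Black lines are group means, bars SD (n = 2), and the dashed line is the signal level of 90.7. HTR2B shows the widest separation, while the groups of HRH2 and AGTRAP nearly touch.

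Among the serotonin receptors, HTR2B had signals of 1088 and 541 with PBS and 77.5 and 123 with rhLH, so 1 of its rhLH arrays lay below 90.7. The groups stood apart, at 814 ± 387 (SD, n = 2) with PBS and 100.1 ± 32.0 (SD, n = 2) with rhLH. The signal was 6.88-fold lower with rhLH on the log2(signal + 16) scale, a log2 difference of −2.78 (SE 0.54) with a limma adjusted p of 0.919. The rhLH mean of HTR2B stood at −3.28 from PBS replicate 1 and −2.29 from PBS replicate 2. Without rhLH replicate 3 the log2 difference of HTR2B was −2.50, and without rhLH replicate 4 it was −3.07. Over the alternatives that used all 4 arrays and kept the gene, its limma adjusted p ran from 0.873 to 0.991. HTR2B had 1 probe set.

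HTR7 had signals of 888 and 328 with PBS and 105 and 282 with rhLH. The groups of HTR7 did not overlap, but rhLH replicate 4 lay close to PBS replicate 2. Its log2 difference was −1.56 (SE 0.69), limma adjusted p 0.919, or −2.25 from PBS replicate 1 and −0.86 from PBS replicate 2. Without rhLH replicate 3 it was −0.91. A further kept probe set of HTR7 had a difference of −0.56 with overlapping groups, and averaging all 4 probe sets of the gene gave −0.58.

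HTR1B and HTR1D, serotonin receptors that couple to Gi, had overlapping groups. HTR1B had signals of 312 and 119.8 with PBS and 33.8 and 175 with rhLH, with the lowest value on rhLH replicate 3. HTR1D had signals of 178 and 72.6 with PBS and 102 and 116 with rhLH, with the extremes both in the PBS group. The channel subunit HTR3D had signals of 475 and 158 with PBS and 92.1 and 138 with rhLH, lower on both rhLH arrays. Its log2 difference of −1.18 (SE 0.67), limma adjusted p 0.919, was −1.93 from PBS replicate 1 and −0.43 from PBS replicate 2, and was thus larger against the former.

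In the angiotensin family, AGTR1 had signals of 951 and 820.0 with PBS and 397 and 701 with rhLH. Both rhLH arrays were below both PBS arrays, and rhLH replicate 4 stood nearer to the controls than rhLH replicate 3. The log2 difference was −0.72 (SE 0.41), limma adjusted p 0.919, with similar values of −0.83 from PBS replicate 1 and −0.62 from PBS replicate 2. Its other probe set showed the same order of groups, with a difference of −0.60 (−0.83 from PBS replicate 1 and −0.37 from PBS replicate 2). On that probe set PBS replicate 2 (646) and rhLH replicate 4 (640) nearly touched, with a gap of 0.015 on the log2 scale. Without rhLH replicate 3 the difference of AGTR1 was −0.33, and without rhLH replicate 4 it was −1.12.

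AGTR2, the other angiotensin receptor, had signals of 451 and 131 with PBS and 209 and 492 with rhLH, and the groups interleaved. AGTRAP, which promotes removal of AGTR1 from the cell surface, had signals of 248 and 694 with PBS and 697 and 758 with rhLH. PBS replicate 2 lay next to the rhLH arrays and PBS replicate 1 stood below all others. The log2 difference of AGTRAP, 0.78 (SE 0.55) with a limma adjusted p of 0.919, was therefore 1.49 from PBS replicate 1 and 0.064 from PBS replicate 2. Its other probe set had signals of 156 and 866 with PBS and 576 and 617 with rhLH. There the groups overlapped, with differences of 1.83 from PBS replicate 1 and −0.53 from PBS replicate 2.

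Of the prostanoid receptors, PTGDR2, which couples to Gi and is known from eosinophils and T helper cells, had signals of 21.7 and 142 with PBS and 457 and 177 with rhLH. Both rhLH arrays were above both PBS arrays, but the values within each group differed by more than 2-fold. The log2 difference of PTGDR2 was 1.97 (SE 0.89), limma adjusted p 0.919, and 0.94 from PBS replicate 2 alone. The gene passed the level through its rhLH arrays, and since PBS replicate 1 lay far under 90.7 no difference from that array is given. The other probe set of PTGDR2 lay below the level. PTGDR, the prostaglandin D receptor that couples to Gs, had signals of 775 and 593 with PBS and 537 and 569.5 with rhLH. PBS replicate 1 stood above the other 3 arrays. The log2 difference of PTGDR, −0.29 (SE 0.36) with a limma adjusted p of 0.919, was −0.47 from PBS replicate 1 and −0.10 from PBS replicate 2. On the other probe set of PTGDR it was 0.0026. PTGER1, a prostaglandin E receptor, had signals of 65.8 and 176 with PBS and 176 and 142 with rhLH, with a single low array in the PBS group.

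The histamine receptors were all above the level. HRH1, which couples to Gq, had signals of 426 and 306 with PBS and 434 and 255 with rhLH, with overlapping groups. Its other probe set gave the opposite sign, with a log2 difference of 1.38 (2.29 from PBS replicate 1 and 0.47 from PBS replicate 2) and both rhLH arrays above both PBS arrays, so the 2 probe sets of HRH1 disagreed. HRH2, which couples to Gs, had signals of 154 and 106 with PBS and 106 and 105 with rhLH. The groups of HRH2 were ordered without overlap by a gap of 0.0045 on the log2 scale, and its difference of −0.25 (SE 0.57) had a limma adjusted p of 0.943. The difference of HRH2 was −0.48 from PBS replicate 1 and −0.0092 from PBS replicate 2. HRH3, known as an autoreceptor of neurons, had signals of 680.3 and 199.6 with PBS and 212 and 203 with rhLH, high on PBS replicate 1 and alike on the other 3 arrays. Another probe set of HRH3, below the level on average, had signals of 269.7 and 146 with PBS and 18.6 and 13.7 with rhLH. On that probe set both rhLH arrays were at least 2-fold under both PBS arrays, so it did not share the overlap of the brightest one.

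Among the lysophospholipid receptors, LPAR5 had signals of 152 and 138 with PBS and 105 and 48.7 with rhLH, a log2 difference of −0.86 (SE 0.63) with a limma adjusted p of 0.919. The PBS arrays were close to each other and rhLH replicate 4 lay below 90.7. LPAR5 differed by −0.93 from PBS replicate 1 and −0.80 from PBS replicate 2, by −0.41 without rhLH replicate 4 and by −1.31 without rhLH replicate 3. LPAR2 had signals of 227 and 214 with PBS and 257 and 143 with rhLH. LPAR6 had signals of 1755 and 1167 with PBS and 1283 and 1485 with rhLH. Neither gene separated the groups. Both LPAR6 and the sphingosine-1-phosphate receptor S1PR3 (1561 and 1603 with PBS and 1151 and 2131 with rhLH) were above 90.7 on every array, and their log2 differences were −0.052 and −0.014. S1PR3 was flat in the group means only, since its rhLH arrays lay on either side of both PBS arrays. S1PR5 had signals of 323 and 162 with PBS and 259 and 342 with rhLH, lowest on PBS replicate 2. S1PR2 had signals of 270.2 and 46.7 with PBS and 89.0 and 126 with rhLH and exceeded 90.7 on 2 arrays only.

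The protease-activated receptors, which are switched on when a protease cuts their outer end, were above 90.7 on every array. F2RL1, the receptor cut by trypsin-like proteases, had signals of 6053 and 4183 with PBS and 4545 and 2727 with rhLH. F2R, the main thrombin receptor, had signals of 1799 and 734 with PBS and 1444 and 1129 with rhLH. F2RL2, which helps thrombin act on related receptors, had signals of 1894 and 682 with PBS and 756 and 785 with rhLH. The groups overlapped for all 3, with log2 differences of −0.51, 0.15 and −0.55. For F2RL2 the other probe set had the opposite sign (0.56).

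The single purine and pyrimidine receptor above the level was P2RY4, with signals of 149 and 194 with PBS and 46.0 and 114 with rhLH. Both rhLH arrays were lower than both PBS arrays, and rhLH replicate 3 was below 90.7. The log2 difference of P2RY4 was −1.06 (SE 0.65), limma adjusted p 0.919, or −0.88 from PBS replicate 1 and −1.23 from PBS replicate 2, −0.52 without rhLH replicate 3 and −1.59 without rhLH replicate 4. Its groups overlapped once arrays were centred on their medians or quantile normalized. NPY5R, a neuropeptide Y receptor, had signals of 1071 and 1284 with PBS and 1446 and 1166 with rhLH, above 90.7 on every array and with overlapping groups.

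The bradykinin and tachykinin receptors above the level did not separate the groups. BDKRB2, the constitutive bradykinin receptor, had signals of 28.4 and 207 with PBS and 169 and 169 with rhLH, so PBS replicate 1 alone was low. BDKRB1, which is induced in inflamed tissue, had signals of 119 and 229 with PBS and 173 and 12.2 with rhLH, with rhLH replicate 4 alone low. TACR1, the substance P receptor, had signals of 928 and 276 with PBS and 286 and 219 with rhLH, with PBS replicate 1 alone high. For each of these genes 1 array stood apart from the other 3. TACR2, the neurokinin A receptor, lay just below the level, with signals of 125 and 112 with PBS and 48.9 and 91.6 with rhLH, lower on both rhLH arrays. The nucleotide receptor P2RY1, as near to the level, went the other way, with signals of 62.7 and 66.5 with PBS and 101 and 147 with rhLH. No share of such genes was computed below the level.

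Both dopamine receptors were highest on PBS replicate 1. DRD2 had signals of 325 and 117 with PBS and 141 and 185 with rhLH, and DRD4 of 897 and 85.8 with PBS and 377 and 214 with rhLH. Another probe set of DRD2, below the level on average, had signals of 124 and 66.2 with PBS and 24.8 and 22.6 with rhLH, at least 2-fold lower on both rhLH arrays. The log2 difference of DRD4 was −1.60 from PBS replicate 1 and 1.56 from PBS replicate 2, which cancelled to −0.020. The adrenergic receptor ADRB3 had signals of 149 and 53.1 with PBS and 143 and 107 with rhLH, with the groups overlapping. The muscarinic receptor CHRM3, which couples to Gq, had signals of 110.2 and 189.7 with PBS and 138 and 353 with rhLH, highest on rhLH replicate 4. AVPR1A, the vascular vasopressin receptor, had signals of 395 and 44.8 with PBS and 116 and 137 with rhLH, with both extremes in the PBS group.

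Of the hormone receptors, RXFP1, the relaxin receptor, had signals of 297 and 123 with PBS and 168 and 153 with rhLH. GNRHR2, the type II GnRH receptor, had signals of 587 and 122 with PBS and 239.5 and 212 with rhLH. TSHR, the thyrotropin receptor and a close relative of the LH receptor, had signals of 325 and 58.2 with PBS and 52.2 and 96.2 with rhLH. All 3 were highest on PBS replicate 1, and TSHR exceeded 90.7 on only 2 arrays.

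**Figure D3:**
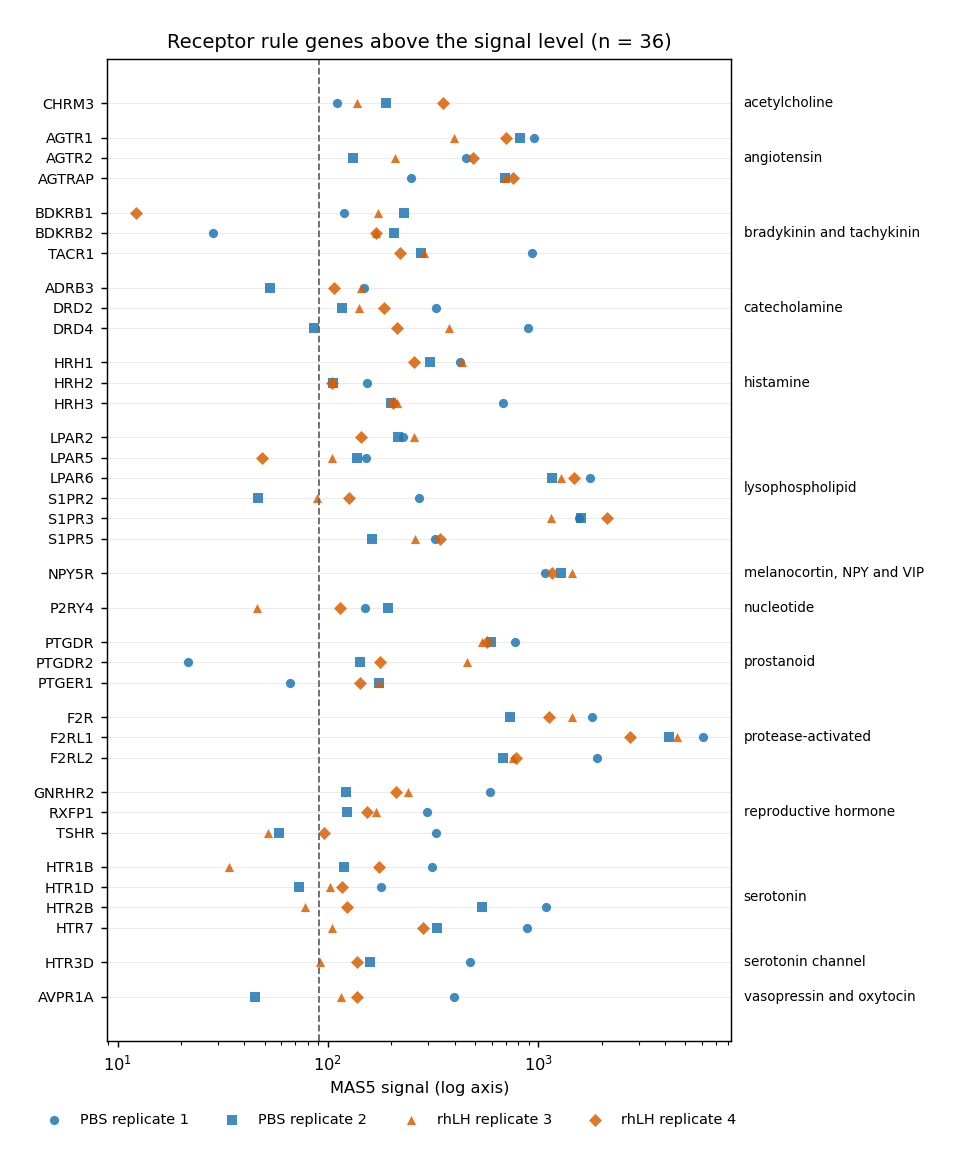
MAS5 signal (horizontal log axis, arbitrary units) of the 36 receptor rule genes above the signal level, grouped by ligand family, with 1 point per array and a dashed line at 90.7. PBS replicate 1 (blue circles) was the highest array for 23 of the 36 genes.

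PBS replicate 1 gave the highest value for 23 of the 36 receptor genes (63.9%), against 44.0% of all kept probe sets and 39.9% of all kept genes. It was at least 2-fold above each other array for 10 of them, namely AVPR1A, DRD4, F2RL2, GNRHR2, HRH3, HTR3D, HTR7, S1PR2, TACR1 and TSHR, where 11.7% of kept probe sets were. AGTRAP, BDKRB2 and PTGDR2 were at least 2-fold below each other array on it (background 11.6%). The median absolute log2 difference of receptor genes was 1.24 between the PBS arrays and 0.41 between the rhLH arrays, beside 0.74 and 0.29 for all kept probe sets. The part of this array in the receptor differences was not tested beyond leaving it out.

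Without PBS replicate 1, 0 receptor genes passed limma (4 at an unadjusted p under 0.05: AGTR2, DRD4, F2R and HTR2B, against 6.42% of kept probe sets), 20 of the 36 differences were positive, and HTR2B remained at least 2-fold lower while AVPR1A and DRD4 were at least 2-fold higher. These 3 compare with 3.40% of all kept probe sets. The median difference there was 0.059 for the 36 and −0.016 for all kept probe sets. Without PBS replicate 2, 14 receptor genes were at least 2-fold apart, against 26.9% of all kept probe sets. AGTRAP, BDKRB2 and PTGDR2 were higher with rhLH. AVPR1A, DRD4, F2RL2, GNRHR2, HRH3, HTR2B, HTR3D, HTR7, S1PR2, TACR1 and TSHR were lower. The lone PBS array gives no spread for its group. BDKRB2 and PTGDR2 had a PBS mean under the level and read 28.4 and 21.7 on PBS replicate 1, so the size of their difference is uncertain. TSHR had an rhLH mean under the level. AVPR1A and DRD4 thus took opposite directions against the PBS arrays.

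**Figure D4:**
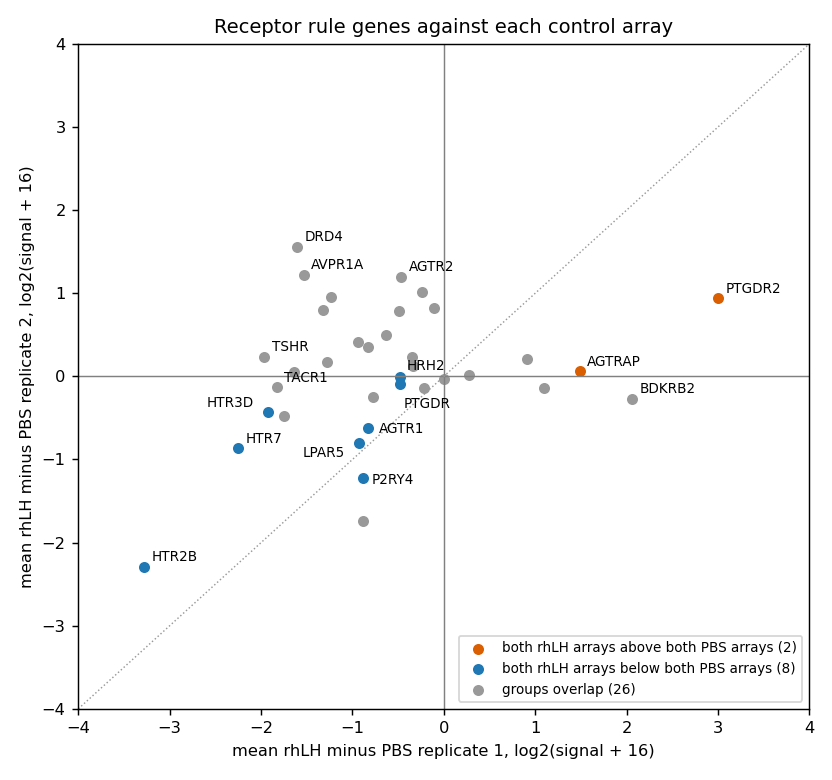
Difference of the rhLH mean from PBS replicate 1 (horizontal) and from PBS replicate 2 (vertical), each in log2(signal + 16), for the 36 genes above the signal level. The dotted line marks equal differences; HTR2B lies low against both controls (−3.28 and −2.29), whereas DRD4 and AVPR1A lie on opposite sides of zero.

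Second probe sets gave a check on some genes. Of the 72 genes, 31 had more than 1 probe set, and 12 of those above the level had a further kept probe set. The further probe set had the same sign of difference as the brightest in 8 cases. It had the opposite sign for F2RL2, HRH1, NPY5R and PTGDR. AGTR1 was the single gene for which both kept probe sets lay lower on both rhLH arrays, on the further one by a gap of only 0.015 in log2. Of 27 further probe sets below the level, 6 lay lower with rhLH and 1 higher without overlap of the groups. The shares over all kept probe sets were 17.7% and 14.4%, and no share was computed for probe sets below the level. The further probe sets of DRD2 and HRH3 given above were at least 2-fold lower, and 0 of the 27 were at least 2-fold higher. The rhLH signals of the DRD2 and HRH3 probe sets, 13.7 to 24.8, lay far under 90.7. The share of 0.49% at least 2-fold lower covers kept probe sets only and is no background for them.

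Genes of the pathways around these receptors were read from lists by the same fit, and 0 of their 52 kept members passed limma. At an unadjusted p under 0.05 there was 1, GNG10, where 2.02% of kept probe sets passed. Both rhLH arrays lay above both PBS arrays for 10 of the 52 and below them for 7, against 14.4% and 17.7% of all kept probe sets.

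Of 13 kept genes of ligands and ligand-making enzymes, 3 were higher and 2 lower in this sense (median log2 difference −0.067). SPHK2 and SPHK1, the kinases that make sphingosine-1-phosphate, were among the 3. SPHK2 had signals of 167 and 60.6 with PBS and 331 and 289.5 with rhLH, a log2 difference of 0.83 from PBS replicate 1 and 2.09 from PBS replicate 2. SPHK1 had signals of 75.4 and 155 with PBS and 334 and 214 with rhLH, a log2 difference of 1.63 from PBS replicate 1 and 0.73 from PBS replicate 2. RLN2, the ligand of RXFP1, had a log2 difference of 0.54, similar against both controls. The thrombin precursor F2 differed by −2.26 from PBS replicate 1 and −0.99 from PBS replicate 2. SPHK1, SPHK2, F2 and, in the calcium list below, ITPR3 each had at least 1 array below 90.7. Of 9 kept genes that remove ligands, BCHE, a cholinesterase, lay above both PBS arrays (0.67) and the dopamine transporter SLC6A3 below (−0.43), with a median of −0.21.

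Of 12 kept G protein subunits, GNG10, a gamma subunit, was higher on both rhLH arrays (1930.1 and 3386 with PBS and 5806 and 6925 with rhLH) and GNB5, a beta subunit, was lower, with a median of −0.037. GNB5 differed by −0.15 from PBS replicate 1 and −0.38 from PBS replicate 2. Of 11 kept genes of phospholipase C and calcium release, 2 were higher and 3 lower (median −0.055). PLCB4, a phospholipase C, differed by −1.27 from PBS replicate 1 and −0.34 from PBS replicate 2. The calcium channel gene ITPR3 differed by −1.74 from PBS replicate 1 and −0.86 from PBS replicate 2. On the higher side, PLCB3 differed by 0.34 from PBS replicate 1 and 0.15 from PBS replicate 2, and PRKCA, a protein kinase C, by 0.22.

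Of 7 kept receptor kinases, arrestins and modifying proteins, 3 were higher and 0 lower (median 0.51), namely RAMP2, ARRB2 and AGTRAP, which is also among the 72. RAMP2, a partner protein of peptide receptors, differed by 1.01 from PBS replicate 1 and 0.21 from PBS replicate 2. ARRB2, an arrestin, had signals of 820 and 833 with PBS and 1572 and 885 with rhLH. Its log2 difference of 0.51 was similar against both controls, but rhLH replicate 4 lay close to them. The medians of the 5 lists ran from −0.32 to 1.01 against PBS replicate 1 and from −0.053 to 0.34 against PBS replicate 2.

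In whole tissue, fewer cells of a type and less RNA per cell cannot be told apart. Summed signals of the kept markers overlapped between the groups for all 9 cell type lists. PBS replicate 1 had the lowest sum for luteal (90355 against 179881 to 195084), endothelial (22248 against 25277 to 29506), smooth muscle (11557 against 16235 to 20166), fibroblast (33104 against 55297 to 64362), macrophage (10188 against 17014 to 34101), lymphocyte (399.8 against 767 to 990.4), erythroid (1203 against 2329 to 4158) and neural markers (6816 against 11909 to 14868). For mast cells, 2 of 6 markers were kept (KIT and FCER1A), and their sum was highest on PBS replicate 1 (2215 against 699 to 1616). Each sum is led by its brightest markers. The 99th percentile of all signals was also lowest on PBS replicate 1, at 8886 against 12091 to 12459, while its median was the highest. The part of this difference in signal range in the sums was not tested. Kept markers numbered 11 of 12 endothelial, 6 of 10 smooth muscle, 7 of 8 fibroblast, 7 of 11 macrophage, 4 of 12 lymphocyte, 3 of 6 erythroid and 3 of 8 neural genes.

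Single markers were apart where the sums were not. Both rhLH arrays lay above both PBS arrays for 9 of the 52 kept markers and below them for 2, against 14.4% and 17.7% of all kept probe sets. Of the 52, 0 passed limma. HSD17B1, CYP19A1 and TAGLN, 3 of the 52, had an unadjusted limma p under 0.05, where 2.02% of kept probe sets did. Of 9 luteal markers 5 were higher and 0 lower (median log2 difference 0.62, or 1.10 from PBS replicate 1 and 0.25 from PBS replicate 2). HSD17B1, an enzyme of estradiol synthesis, had signals of 67.1 and 51.4 with PBS and 273 and 319 with rhLH, at least 2-fold higher on both rhLH arrays with both PBS arrays under 90.7. CYP19A1, the aromatase, had signals of 1884 and 7431 with PBS and 12669.9 and 20847 with rhLH, also apart, with differences of 3.10 from PBS replicate 1 and 1.13 from PBS replicate 2. NR5A2, a transcription factor of steroidogenic cells, differed by 0.90 from PBS replicate 1 and 0.35 from PBS replicate 2. AMHR2, the receptor of anti-Mullerian hormone, differed by 1.98 from PBS replicate 1 and 0.25 from PBS replicate 2.

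Of 11 endothelial markers, KDR, a VEGF receptor, and TIE1 were higher and PECAM1 was lower (list median 0.26). KDR differed by 2.50 from PBS replicate 1 and 0.20 from PBS replicate 2, with the first of these under 90.7. PECAM1 differed by −0.45 from PBS replicate 1 and −0.16 from PBS replicate 2, and TIE1 by 0.15. Among smooth muscle markers (median 0.25), TAGLN, an actin-binding protein, had signals of 2668 and 2568 with PBS and 6118 and 6561 with rhLH, at least 2-fold higher on both rhLH arrays (background 0.344%). The collagen gene COL3A1 was the fibroblast marker that lay lower (list median −0.080), differing by −1.50 from PBS replicate 1 and −0.28 from PBS replicate 2. The erythroid enzyme gene ALAS2 was higher by 1.24 (list median 1.24). No macrophage, lymphocyte, mast cell or neural marker was apart, with medians of −0.039, 0.025, 0.13 and 0.28. The part of these cell types in the receptor differences was not tested.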

How the data were processed

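Total RNA from corpora lutea was hybridised to 4 Affymetrix rhesus macaque arrays, 2 per group. The deposited values are probe set intensities, MAS5 signals on a linear scale made by the authors per the labels and the submitters' processing notes. The 2% trimmed mean was 500.0 on all 4 arrays. The scaling target is not given in the sources used here, and detection calls were not used. Gene names came from a platform annotation table: of 52766 probe sets (99 control probe sets set aside), 24956 had 1 symbol, 361 several and 27449 none. No genome, sequence or coordinate was used, and mismatches of the rhesus probes to bonnet monkey RNA were not examined.

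Signals were analysed as log2(signal + 16) without further normalization. Probe sets above the 40th percentile of mean log2 (31659) entered limma 3.58.1 under R 4.3.3 (linear model, eBayes with trend, two-sided, Benjamini-Hochberg over all kept probe sets, threshold 0.05), and the script was tested on simulated data. A fold is 2 raised to the log2 difference of group means. Each SD is over 2 arrays. Which animal each array came from is not in the labels, so p-values measure the spread between these arrays, which may be technical.

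The receptor genes and all lists were chosen with earlier results of these data known. Every receptor gene is named. Differences with SE are given for genes above the level whose groups do not overlap; HTR2B and AGTR1 were named whatever their values. From other lists, up to 4 genes whose groups do not overlap are named by ascending p. The 14 lists (9 of cell type markers, 5 of pathways) were described by counts and medians, with no set test. The number of arrays limits the precision. Alternatives covered scaling, pseudocounts of 1 and 64, filters, the spread model, array weights, the choice of probe set, leaving out each array and, added after seeing the data, G protein-coupled receptors only.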

Additional observations from a re-analysis of the deposited data

How the results depend on the processing

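No paired analysis was possible because the groups share no replicate numbers in the labels. The 10 receptor genes with non-overlapping groups kept the sign of their difference under every alternative in which they could be fitted. These genes were picked for groups that do not overlap. Left-out arrays, pseudocounts, filters, the spread model and array weights therefore could not turn that sign. Only the scalings and the averaging of probe sets could. Leaving out 1 array at a time gave 0 to 8169 limma calls over all kept probe sets and 0 to 13 among receptor genes, the upper values without PBS replicate 2. Every other alternative gave 0 for both counts. The count of receptor genes at least 2-fold apart ran from 3 to 14 with 1 array left out, was 0 with the filter at the 70th percentile, where HTR2B was not kept, and was 1 under the other alternatives. With 1 array left out the share over all kept probe sets ran from 2.97% to 26.9%. Both the 14 and the 26.9% came without PBS replicate 2. The number above the signal level fell to 9 at the 70th percentile and to 27 when all probe sets of a gene were averaged, and was 34 to 38 under the others; without a filter it has no value. The median difference of receptor genes ran from −0.80 to 0.059 with 1 array left out and was 0.016 with arrays centred on their medians. The limma adjusted p of HTR2B ran from 0.00389 to 1.00 over all alternatives. With 1 array left out, the remaining array of that group is assumed to vary like the other group. Signals near or below 90.7 limit what can be said of 50 of the 72 genes, the 36 below the level and 14 above it with at least 1 array under 90.7.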
